A study of Mus musculus with 12 samples.

Results

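Opposite-strand transcripts were taken as the rows of the deposited counts table whose symbol ends in OS, or in OS and a digit, and whose remaining letters are a row of their own, the stem gene. The table of 56441 rows held 332 OS rows, of which 306 had a stem row, and 108 of these 306 had 0 counts in every library. The 72 members described here are the OS rows with a stem and with 60 or more counts summed over the 12 libraries, and they belong to 69 distinct stem genes. Members were thus selected on their summed count, which is given only as a description. The study sequenced liver RNA of mice, whose cells the labels call hepatocytes, in 4 groups of 3 libraries and asked about fumarate hydratase (FH), the enzyme that turns fumarate into malate, in fatty liver. The groups are C57BL/6 mice with AAV8-FH and a 24 h fast, C57BL/6 mice with AAV8-vector and the same fast, ob/ob mice with AAV8-FH on a high-fat diet, and ob/ob mice with AAV8-vector on that diet. All mice thus received an AAV8 virus, an adeno-associated virus that the submitters call liver-specific, by tail vein when 6 to 8 weeks old and 1 month before the end point. The sources used here give neither the promoter that drives FH nor the species of the delivered sequence nor the sex of the mice. They also do not say whether each library is a separate animal, so the p-values speak only of the spread among libraries, and that spread may be technical.

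A natural antisense transcript is read from the DNA strand opposite to a neighbouring gene. Such pairs may start back to back from a shared promoter region, run into each other at their ends, or lie one inside the other. Some of these RNAs act on their neighbour through the act of being transcribed, some act on other RNAs, some encode a small protein and most have no known role. Many are low in abundance and stay in the nucleus, so a library made from polyadenylated RNA samples them thinly.

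The sequences that follow show the arrangements on which the results turn. Fam120aos, Wdr83os and Hand2os1 have promoter windows (RefSeq, GRCm38.p6, 250 bases before and 50 after the start) that overlap the window of a stem gene read the other way, and these are printed with the transcribed bases in capitals. The window of Fam120aos lies at chr13:48967862-48968161 on the plus strand and shares 151 bases with the window of Fam120a. That of Wdr83os lies at chr8:85080713-85081012 on the plus strand and shares 284 bases with that of Wdr83. That of Hand2os1 lies at chr8:57320810-57321109 on the minus strand and shares 223 bases with that of Hand2, although in GENCODE the starts of Hand2os1 and Hand2 lie 3250 bp apart and the pair is counted by that distance.
Fam120aos: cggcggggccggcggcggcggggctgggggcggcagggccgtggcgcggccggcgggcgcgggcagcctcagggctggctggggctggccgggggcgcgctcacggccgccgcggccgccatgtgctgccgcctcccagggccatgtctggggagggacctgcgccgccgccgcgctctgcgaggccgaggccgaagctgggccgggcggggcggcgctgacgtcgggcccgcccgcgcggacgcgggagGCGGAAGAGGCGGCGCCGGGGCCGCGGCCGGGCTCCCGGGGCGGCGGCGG
Wdr83os: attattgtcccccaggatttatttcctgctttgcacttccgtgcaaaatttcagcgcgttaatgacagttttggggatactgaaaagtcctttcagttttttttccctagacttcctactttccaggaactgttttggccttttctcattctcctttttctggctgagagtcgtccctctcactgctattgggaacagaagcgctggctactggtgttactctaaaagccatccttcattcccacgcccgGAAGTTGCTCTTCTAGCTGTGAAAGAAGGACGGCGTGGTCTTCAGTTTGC
Hand2os1: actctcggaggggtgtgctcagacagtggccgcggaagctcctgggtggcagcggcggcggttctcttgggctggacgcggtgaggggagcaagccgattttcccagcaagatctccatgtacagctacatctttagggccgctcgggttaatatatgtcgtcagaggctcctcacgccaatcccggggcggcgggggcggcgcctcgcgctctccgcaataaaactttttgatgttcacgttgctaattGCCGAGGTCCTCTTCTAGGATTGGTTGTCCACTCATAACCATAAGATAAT
Oip5os1, also known as Cyrano, is shown for another reason. It is the most abundant member and, in mammals, carries a conserved and extensively paired site for miR-7 that leads to the decay of this microRNA. The mature mouse miR-7a-5p (RefSeq) is printed with its seed, bases 2 to 8, in capitals, and the site in the longest Oip5os1 transcript (GENCODE M21, nucleotides 2934 to 2959 of 8300) with the match to that seed in capitals. The transcript held 2 matches to the seed.
miR-7a-5p: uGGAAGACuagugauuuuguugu
Oip5os1 site: aacaacaaaaucaccaauGUCUUCCa

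Library totals ran between 19107050 and 25873379 counts for fasted FH, 12231828 and 14884323 for fasted vector, 21632289 and 23506015 for ob/ob FH, and 12573267 and 14496559 for ob/ob vector. Fh1, the mouse gene of the enzyme, averaged 812 ± 104 CPM in fasted FH and 319 ± 85.4 CPM in fasted vector libraries (log2 fold change 1.35), and 679 ± 106 CPM in ob/ob FH and 122 ± 17.9 CPM in ob/ob vector libraries (2.48; SD, n = 3 each). CPM is here the count relative to a library total that was scaled by the TMM method, which sets the typical gene near no change, and all levels are on that scale. Genes annotated as noncoding took 0.265% to 0.329% of counts in the 6 FH libraries and 0.897% to 1.21% in the 6 vector libraries. Xist had 2242 to 4992 counts, and the Y-linked genes 0, in the 3 ob/ob FH libraries, while the other 9 libraries had 1 to 24 and 2304 to 5181. A difference of sex markers thus cannot be told apart from FH in the ob/ob livers. Nor can it be told apart from the model between ob/ob and fasted livers with FH, or in the difference of FH effects. In ob/ob vector replicate 2 the clock gene Dbp stood at 0.564 CPM, against 48.9 and 48.4 CPM in replicates 1 and 3, and the steroid enzyme gene Hsd3b5 at 448 CPM, against 0.0795 and 0 CPM. In fasted livers Dbp stood at 33.5 to 46.8 CPM with FH and 2.69 to 6.64 CPM with the vector. The clock gene Arntl stood there at 1.27 to 2.77 CPM and 20.4 to 25.8 CPM. In ob/ob FH libraries Dbp stood at 9.98 to 33.6 CPM, within the range of the ob/ob vector libraries. A difference of clock genes thus cannot be told apart from FH in fasted livers. The summed level of 10 hepatocyte markers was 148602 to 209064 CPM in FH libraries and 53503 to 89808 CPM in vector libraries. These levels are in keeping with the hepatocyte label, although markers of other cells were present too. Each listed marker of endothelium, Kupffer cells, stellate cells, bile duct or lymphocytes had counts in at least 1 of the 12 libraries, without regard to group.

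Members and stems lie as their names imply. In GENCODE M21 (GRCm38), joined by symbol, 69 of the 72 members were found, and all 69 lie on the strand opposite to their stem. In 26 pairs the genes overlap at their 5′ ends, in 9 at their 3′ ends, in 15 the member lies inside the stem gene and in 2 the stem lies inside the member. A further 11 pairs point away from each other and 6 towards each other without overlap. Of the members 49 are annotated as antisense, 6 as lincRNA, 6 as processed transcripts, 2 as bidirectional-promoter lncRNA, 1 as a unitary pseudogene and 5 as protein-coding, among them Slc7a6os, Wdr83os, Cebpzos and Brd3os. Exons of 42 members overlap exons of the stem. The kit marks strand, but whether counting used it is unknown from the labels and notes, so for these 42 pairs reads from the 2 strands may not be separable. A further 10 members overlap the stem gene without shared exons, and reads may not be separable there either.

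Counts were uneven among members. Oip5os1 had 20817 counts over the 12 libraries, Ctcflos 8925, Brip1os 5662 and Slc7a6os 4151. Fam120aos had 3560, Hand2os1 2992 and Hectd2os 2834. Without regard to length, 15 members had more counts than their stem, 5 stems had under 60 counts and 2 of these, Chrna1 and Myadml2, had 0. At the lower end Plxna4os1 had 84, Fbxl12os 83 and Phtf1os 63 counts, while Tmem51os1 with 59, Ube4bos3 with 57 and Tnfsf13os with 56 lay just under the limit of 60.

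The 72 members together took 0.0202% to 0.0232% of the counts in fasted FH libraries and 0.0582% to 0.0773% in fasted vector libraries. In the ob/ob livers they took 0.0222% to 0.0255% with FH and 0.0630% to 0.0739% with the vector. The 6 FH libraries thus all lay below the 6 vector libraries. In RNA of whole tissue, fewer cells of a type and less RNA per cell cannot be told apart.

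**Figure D1:**
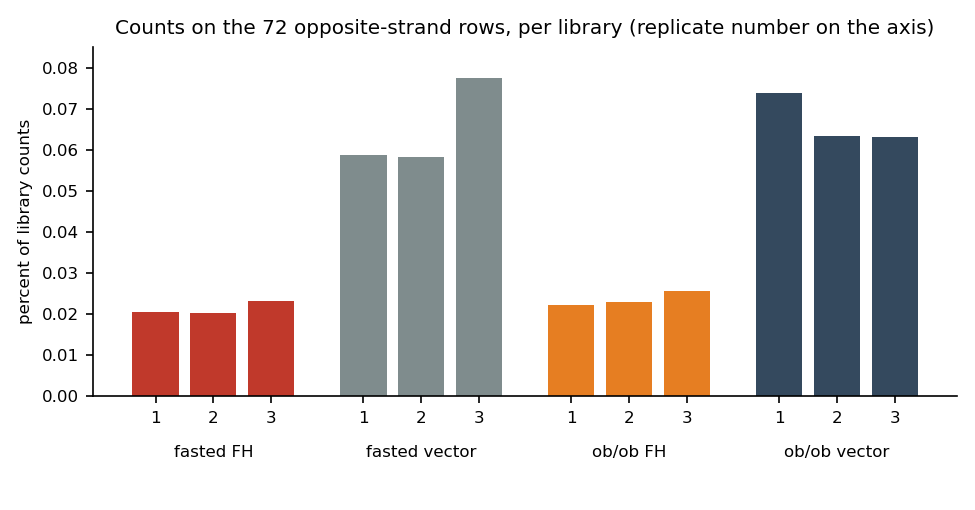
Percent of each library's counts that fell on the 72 opposite-strand rows, 1 bar per library, by group. The FH libraries lie between 0.0202% and 0.0255% and the vector libraries between 0.0582% and 0.0773%.

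In the fasted livers most members that changed were lower with FH. Cd55os, Rapgef4os2 and Rapgef4os3 fell most among the members named here, while Wdr83os, Brip1os, Prox1os and Zbtb11os1 rose. Of 71 members tested (Sp3os was too low), 4 rose, 34 fell and 33 did not pass (edgeR's quasi-likelihood test, adjusted p under 0.05 over 15228 genes). Falls took 47.9% of the members, beside 27.6% of all genes tested and 56.8% of the 1332 noncoding genes that are not members. Rises took 5.63% of the members, beside 27.4% and 2.25%. The median log2 fold change was -0.92 over the members, -0.04 over all genes and -1.47 over the other noncoding genes. In 37 members all 3 FH libraries lay below all 3 vector libraries (51.4%, against 30.6% of all genes), and in 6 all 3 lay above (30.4% of all genes). On library totals, which move the median of all genes by -0.67, 3 members rose and 45 fell, beside 1090 rises and 8488 falls among all genes.

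In the ob/ob livers, too, most members that changed were lower with FH. Brip1os and Wdr83os were among the 3 members that rose, 43 fell and 25 did not pass. Falls took 60.6% of the members, beside 27.9% of all genes and 65.4% of other noncoding genes, and rises took 4.23%, beside 25.8% and 1.2%. The medians were -1.27 over the members, -0.01 over all genes and -1.90 over the other noncoding genes. In 41 members the 3 FH libraries all lay below the 3 vector libraries (56.9%, against 31.2% of all genes), and in 5 they all lay above (30.6% of all genes). On library totals, which move the median by -0.62, 1 member rose and 52 fell. In both models 33 members fell and 2, Brip1os and Wdr83os, rose, while Prox1os was called in opposite directions.

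These counts describe the rows that passed the limit and are no evidence about opposite-strand transcripts as a kind. All 72 members had 30 or more counts in the vector libraries and 52 had that many in the FH libraries, so some passed through the vector libraries alone. In the vector libraries alone 67 members had 60 or more counts, and in the FH libraries alone 44. Where a member met the limit only through the vector libraries, that choice favours a fall with FH, and its p-values are a description. In 60 members most counts lay in the vector libraries, although these held 80717914 counts against 133996729 in the FH libraries. Of the 5 protein-coding members, 1 rose and 1 fell in fasted livers and 2 rose and 1 fell in ob/ob livers. Over all genes 27.4% rose and 27.6% fell in fasted livers, and 25.8% and 27.9% in ob/ob livers. Of 63 noncoding members, 3 rose and 32 fell in fasted livers (4.76% and 50.8%), beside 2.25% and 56.8% of other noncoding genes. In ob/ob livers 1 rose and 41 fell (1.59% and 65.1%), beside 1.2% and 65.4%. The noncoding members' falls were thus near or below those of other noncoding genes.

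**Figure D2:**
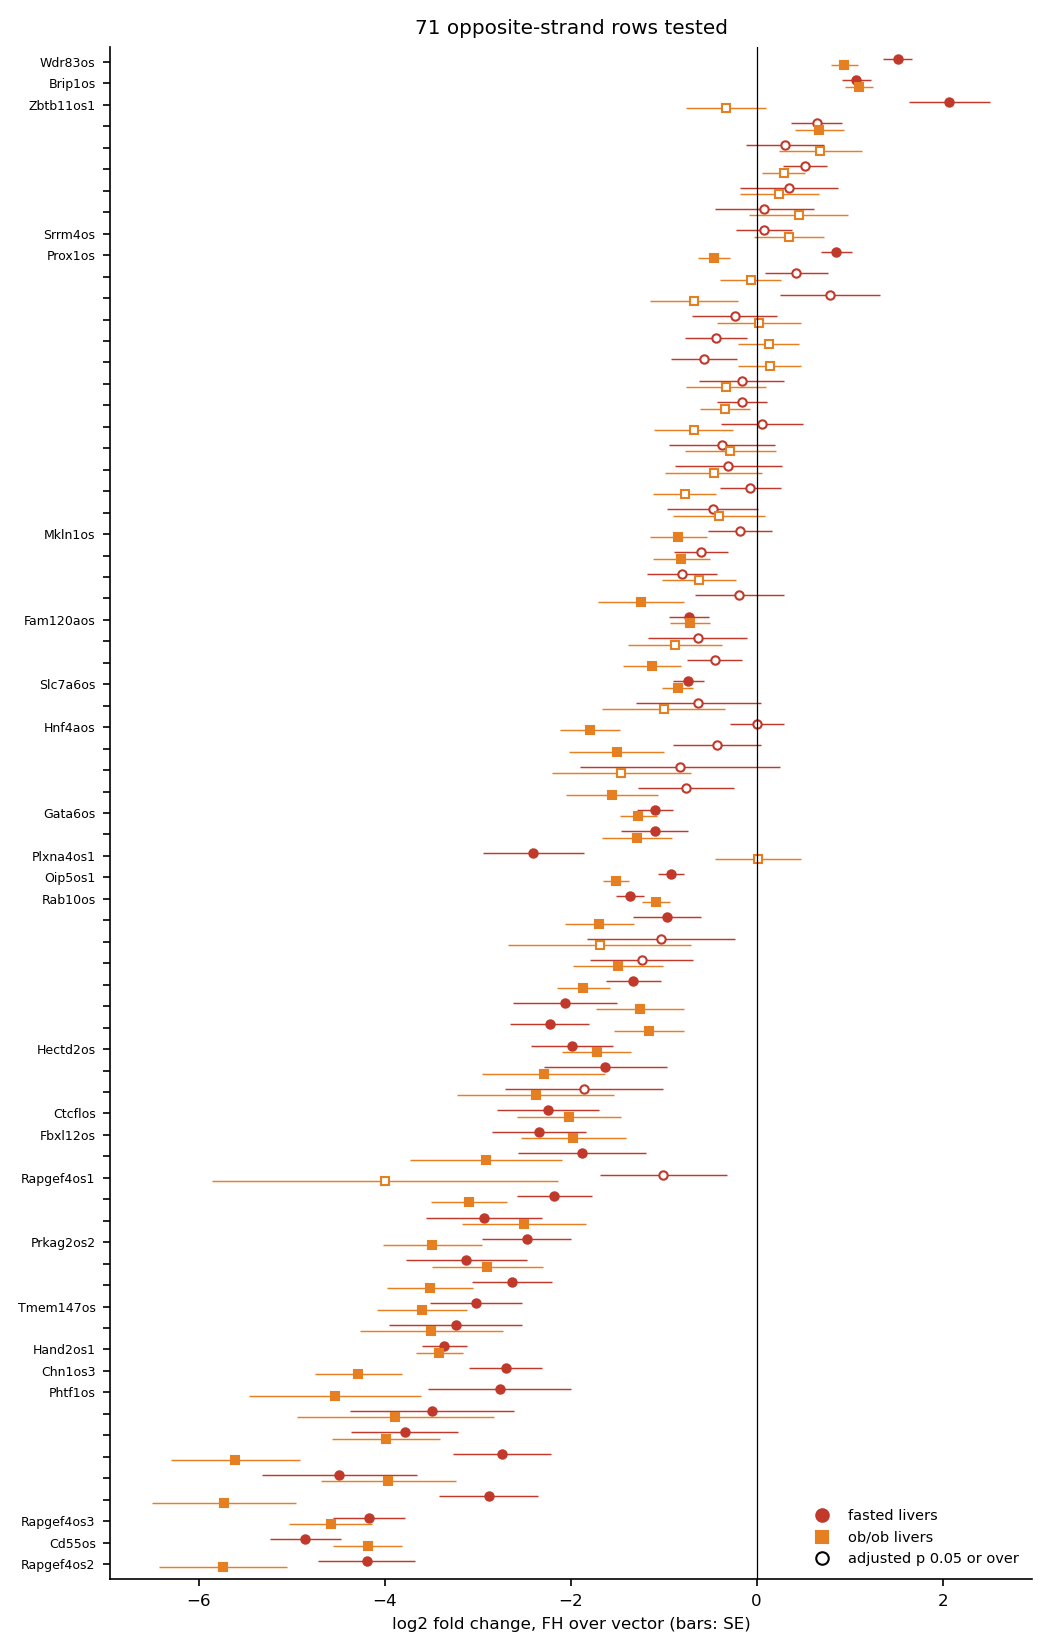
Log2 fold change of FH over vector (x axis, bars SE) for each of the 71 members tested, from the highest mean of both models at the top to the lowest, with names only for members described in the text. Circles stand for fasted and squares for ob/ob livers, filled where the adjusted p is under 0.05, and most filled points lie left of 0.

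Oip5os1 was lower with FH in both models. It stood at 82.1, 62.1 and 77.5 CPM in fasted FH libraries, against 119, 139 and 162 CPM in fasted vector libraries (log2 fold change -0.92, SE 0.14, adjusted p = 0.000115). Its level was 45.3, 52.8 and 50.8 CPM in ob/ob FH libraries, against 139, 146 and 139 CPM in ob/ob vector libraries (log2 fold change -1.51, SE 0.14, adjusted p = 3.24e-06). The groups did not overlap in either model, and the fall was 1.90-fold and 2.85-fold. Its stem Oip5, a centromere protein, had 4, 4 and 4 counts in fasted FH libraries, against 2, 6 and 3 in fasted vector libraries, and was not called in either model. The fitted change of the Oip5os1 to Oip5 ratio was -1.10 (SE 0.26, limma adjusted p = 0.0023) in fasted and -2.31 (SE 0.26, limma adjusted p = 3.83e-06) in ob/ob livers. The variance trend of that fit follows the count of the member and not that of the stem. With so few Oip5 counts, these SEs and adjusted p-values may be too small.

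Members that share a start region with the stem held both falls and most of the rises. Fam120aos, a long noncoding RNA that starts 270 bp from Fam120a, stood at 14.1, 10.8 and 18.8 CPM in fasted FH libraries, against 29.5, 19.1 and 23.9 CPM in fasted vector libraries (log2 fold change -0.73, SE 0.22, adjusted p = 0.0116). With FH the ob/ob level was 12.2, 9.62 and 13.2 CPM, against 22.96, 17.9 and 16.6 CPM with the vector in ob/ob livers (log2 fold change -0.71, SE 0.22, adjusted p = 0.0133). The FH libraries were all lower than the vector libraries in both models. The call was lost in fasted livers without fasted FH replicate 2 (-0.54), and in ob/ob livers without ob/ob FH replicate 2 (-0.58) or ob/ob vector replicate 1 (-0.55). Fam120a, which encodes an RNA-binding protein, moved the other way in fasted livers at 248, 243 and 238 CPM with FH, against 134, 153 and 139.8 CPM with the vector (log2 fold change 0.77, SE 0.12, adjusted p = 0.000122), a rise that was 0.10 and not called on library totals.

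Hand2os1 fell with FH while its stem was not called. This RNA, also known as upperhand, is transcribed away from Hand2 and in the embryonic mouse heart its transcription has been reported to act on Hand2. It stood at 4.52, 2.81 and 3.11 CPM in fasted FH libraries, against 34.6, 29.1 and 42.9 CPM in fasted vector libraries (log2 fold change -3.36, SE 0.24, adjusted p = 1.36e-06), a 10.2-fold fall. Levels in ob/ob livers were 1.24, 2.44 and 1.88 CPM with FH, against 19.1, 23.2 and 17.00 CPM with the vector (log2 fold change -3.41, SE 0.25, adjusted p = 8.44e-07), a 10.6-fold fall. The groups did not overlap in either model. Hand2, a transcription factor of mesenchymal cells that liver stellate cells express, had a log2 fold change of 0.32 (SE 0.25, adjusted p = 0.288) in fasted and 0.57 (SE 0.26, adjusted p = 0.0766) in ob/ob livers. Of 10 stellate cell markers tested, 0 rose and 3 fell in fasted livers, and 5 rose and 1 fell in ob/ob livers. Hand2os1 had 86.5%, 89.4% and 81.7% of the counts of Hand2 in fasted FH libraries, against 904%, 1185% and 1242% in fasted vector libraries.

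Wdr83os and Brip1os were the members that rose in both models. Wdr83os encodes a small protein of a membrane protein chaperone in the endoplasmic reticulum, and it stood at 9.40, 8.28 and 9.16 CPM in fasted FH libraries, against 3.05, 2.93 and 3.39 CPM in fasted vector libraries (log2 fold change 1.52, SE 0.15, adjusted p = 5.88e-06). The ob/ob FH libraries stood at 8.80, 9.25 and 8.82 CPM, against 4.81, 4.57 and 4.602 CPM in the ob/ob vector libraries (log2 fold change 0.94, SE 0.15, adjusted p = 0.000139), a rise that was 0.32 and not called on library totals. Each FH library lay above each vector library. Wdr83, a scaffold protein whose exons overlap those of Wdr83os, rose with it in fasted livers, 1.11 (SE 0.16, adjusted p = 7.69e-05). Wdr83 was in ob/ob livers at 0.45 (SE 0.16, adjusted p = 0.0258), which was not called without ob/ob FH replicate 1 (0.42), ob/ob FH replicate 2 (0.42) or ob/ob vector replicate 2 (0.34) and turned to -0.17 on library totals.

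Brip1os is noncoding and starts 177 bp from Brip1, a DNA helicase of the Fanconi anaemia pathway. It stood at 23.8, 33.7 and 23.2 CPM in fasted FH libraries, against 14.04, 13.3 and 10.96 CPM in fasted vector libraries (log2 fold change 1.07, SE 0.16, adjusted p = 7.98e-05). In ob/ob livers it stood at 46.9, 40.8 and 45.4 CPM with FH, against 21.3, 19.1 and 21.5 CPM with the vector (log2 fold change 1.10, SE 0.15, adjusted p = 5.18e-05). The groups did not overlap, and Brip1os rose 2.10-fold and 2.15-fold. Brip1 was not called, at 0.35 and 0.17. The ratio of Brip1os to Brip1 rose by 0.86 (SE 0.34, limma adjusted p = 0.0432) in fasted livers, a call lost without any of 7 libraries (0.47 to 0.96: fasted FH replicates 1 and 3, fasted vector replicates 1 and 3, and each ob/ob FH replicate). In ob/ob livers it rose by 0.90 (SE 0.34, limma adjusted p = 0.0353), and leaving out ob/ob FH replicate 1 or 3 or ob/ob vector replicate 1 or 2 ended that call (0.72 to 0.89).

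**Figure D3:**
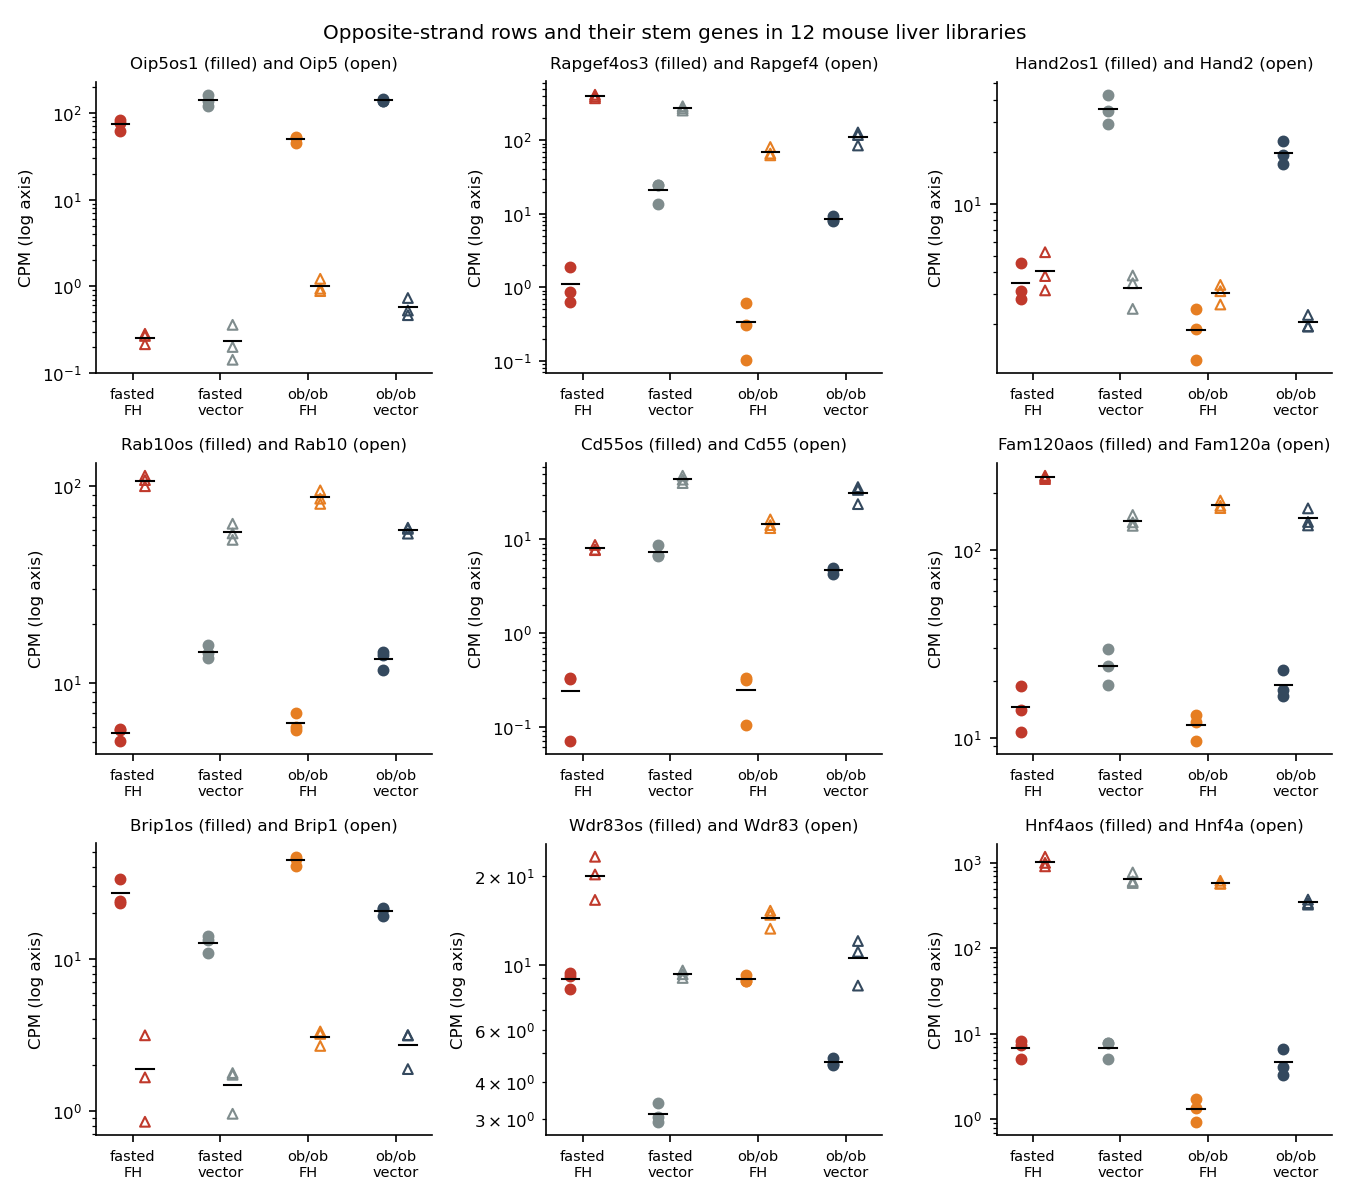
CPM of 9 members (filled circles) and their stem genes (open triangles) in each of the 12 libraries, on log axes, with a bar at the mean of 3 libraries. CPM is not divided by length, so heights of a member and its stem are not compared, and a reader should see for example Hand2os1 at 1.24 to 4.52 CPM in FH libraries and 17.0 to 42.9 CPM in vector libraries while Hand2 stays between 1.93 and 5.23 CPM.

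Hnf4aos was lower with FH in the ob/ob livers. It lies antisense to Hnf4a, the nuclear receptor that maintains hepatocyte identity, and stood at 1.71, 0.936 and 1.36 CPM in ob/ob FH libraries, against 4.06, 6.56 and 3.29 CPM in ob/ob vector libraries (log2 fold change -1.79, SE 0.33, adjusted p = 0.000467). In fasted livers it stood at 5.09, 8.22 and 7.44 CPM with FH, against 7.87, 5.02 and 7.84 CPM with the vector (log2 fold change 0.01, SE 0.29, adjusted p = 0.988). The ob/ob groups did not overlap and the fasted groups did. Hnf4a rose in ob/ob livers, with a log2 fold change of 0.77 (SE 0.15, adjusted p = 0.000878), which was 0.14 and not called on library totals, and rose in fasted livers, 0.66 (SE 0.15, adjusted p = 0.00241), which was -0.01 on library totals. The ratio of Hnf4aos to Hnf4a had a log2 change of -2.53 (SE 0.35, limma adjusted p = 3.28e-05) in ob/ob livers.

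Gata6os starts 503 bp from Gata6, a zinc-finger factor of endoderm and endothelium. It stood at 4.24, 4.21 and 4.34 CPM in fasted FH libraries, against 7.80, 8.61 and 10.96 CPM in fasted vector libraries (log2 fold change -1.10, SE 0.19, adjusted p = 0.000355). Its level was 3.05, 2.86 and 2.11 CPM in ob/ob FH libraries, against 6.67, 6.93 and 5.75 CPM in ob/ob vector libraries (log2 fold change -1.27, SE 0.20, adjusted p = 0.000139). The FH libraries were lower throughout. Gata6 moved the other way, by 0.78 (SE 0.18, adjusted p = 0.00218) in fasted and 0.89 (SE 0.18, adjusted p = 0.000938) in ob/ob livers, rises that were 0.11 and 0.27 and not called on library totals. The ratio, which needs no scaling between libraries, fell, with log2 changes of -1.86 (SE 0.26, limma adjusted p = 4.41e-05) and -2.17 (SE 0.26, limma adjusted p = 8.25e-06).

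Rapgef4os1, Rapgef4os2 and Rapgef4os3 lie inside 1 stem gene, Rapgef4, the cAMP-activated exchange factor Epac2. Rapgef4os3 stood at 0.636, 0.868 and 1.87 CPM in fasted FH libraries, against 13.6, 24.9 and 24.4 CPM in fasted vector libraries (log2 fold change -4.17, SE 0.39, adjusted p = 3.78e-06). With FH the ob/ob level was 0.103, 0.312 and 0.610 CPM, against 8.06, 9.24 and 8.16 CPM with the vector in ob/ob livers (log2 fold change -4.58, SE 0.45, adjusted p = 4.25e-06). The falls were 17.9-fold and 23.9-fold, with no overlap. Its exons overlap none of Rapgef4, but it lies inside that gene, so reads may still not be separable. Rapgef4 stood at 372, 415 and 393 CPM in fasted FH libraries, against 289.5, 271 and 253 CPM in fasted vector libraries (log2 fold change 0.54, SE 0.16, adjusted p = 0.0105), a rise that turned to -0.13 on library totals. Rapgef4 fell in ob/ob livers, with a log2 fold change of -0.66 (SE 0.16, adjusted p = 0.0033). Rapgef4os3 had 0.171%, 0.209% and 0.476% of the counts of Rapgef4 in fasted FH libraries, against 4.70%, 9.20% and 9.62% in fasted vector libraries, and the ratio changed by -4.81 (SE 0.52, limma adjusted p = 4.27e-06) and, in ob/ob livers, -4.17 (SE 0.52, limma adjusted p = 1.17e-05).

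The other 2 rows in Rapgef4 were thinner. Rapgef4os2 had 1, 2 and 3 counts in fasted FH libraries, against 21, 40 and 50 counts in fasted vector libraries (log2 fold change -4.19, SE 0.52, adjusted p = 2.45e-05). It had in ob/ob livers 1 count in all with FH and 70 with the vector, a ratio of CPM of 0.0132 (exact binomial 95% interval 0.000330 to 0.0761, which covers counting error alone). The groups did not overlap in either model. Rapgef4os1 had 5, 16 and 13 counts in fasted FH libraries, against 22, 31 and 13 counts in fasted vector libraries, which overlap (log2 fold change -1.004, SE 0.68, adjusted p = 0.232). In ob/ob livers it had 0 counts with FH, which allows up to 3 counts per library, and 0, 6 and 0 counts with the vector, so no fold is given. Prkag2os2, inside the gene of an AMPK subunit, had 1, 1 and 3 counts in ob/ob FH libraries, against 14, 17 and 25 counts in ob/ob vector libraries (log2 fold change -3.49, SE 0.53, adjusted p = 0.000118). Prkag2 rose there by 0.46 (SE 0.11, adjusted p = 0.00257), which turned to -0.16 on library totals.

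Rab10os meets Rab10 at the 3′ ends, with overlapping exons, and fell in both models. It stood at 5.09, 5.74 and 5.84 CPM in fasted FH libraries, against 13.3, 14.2 and 15.5 CPM in fasted vector libraries (log2 fold change -1.37, SE 0.15, adjusted p = 1.06e-05). Levels in ob/ob livers were 5.95, 5.77 and 7.04 CPM with FH, against 11.6, 13.8 and 14.4 CPM with the vector (log2 fold change -1.08, SE 0.15, adjusted p = 4.86e-05). The highest FH library lay below the lowest vector library in each model. Rab10, a small GTPase of vesicle traffic, moved the other way at 113, 107 and 100.03 CPM in fasted FH libraries, against 57.6, 64.5 and 53.4 CPM in fasted vector libraries, 0.87 (SE 0.11, adjusted p = 3.53e-05), and in ob/ob livers at 0.55 (SE 0.11, adjusted p = 0.0011). On library totals Rab10 was 0.20 and not called in fasted livers and turned to -0.08 in ob/ob livers. The ratio of Rab10os to Rab10 changed by -2.24 (SE 0.21, limma adjusted p = 1.45e-06) and -1.63 (SE 0.21, limma adjusted p = 1.47e-05).

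Hectd2os and Chn1os3 are further members of that arrangement. Hectd2os, opposite a ubiquitin ligase gene, stood at 2.76, 2.14 and 1.07 CPM in fasted FH libraries, against 10.2, 3.59 and 9.50 CPM in fasted vector libraries (log2 fold change -1.98, SE 0.44, adjusted p = 0.00199). The ob/ob FH libraries stood at 12.9, 7.54 and 9.24 CPM, against 30.8, 45.9 and 20.9 CPM in the ob/ob vector libraries (log2 fold change -1.72, SE 0.37, adjusted p = 0.00165). Groups did not overlap, and Hectd2 fell too, with log2 fold changes of -1.72 (SE 0.49, adjusted p = 0.00885) and -2.22 (SE 0.47, adjusted p = 0.00142), and the ratio was not called in either model. Chn1os3 had 1, 2 and 3 counts in ob/ob FH libraries, against 39, 44 and 32 counts in ob/ob vector libraries (log2 fold change -4.28, SE 0.47, adjusted p = 9.78e-06), while Chn1, which encodes the Rac regulator chimaerin, had 15 counts in all 12 libraries and was not tested.

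Cd55os and Slc7a6os lie downstream of their stems without overlap. Cd55os stood at 0.0707, 0.334 and 0.321 CPM in fasted FH libraries, against 6.66, 6.88 and 8.63 CPM in fasted vector libraries (log2 fold change -4.85, SE 0.38, adjusted p = 1.97e-06). In ob/ob livers it stood at 0.103, 0.312 and 0.328 CPM with FH, against 4.23, 4.99 and 4.76 CPM with the vector (log2 fold change -4.18, SE 0.37, adjusted p = 2.25e-06). With 1, 5 and 6 counts in fasted and 2, 6 and 7 counts in ob/ob FH libraries, the depth under the 28.9-fold and 18.2-fold falls is small. Cd55, which protects cells from complement, fell as well, at 7.77, 7.68 and 8.73 CPM in fasted FH libraries, against 39.98, 43.5 and 47.9 CPM in fasted vector libraries (log2 fold change -2.44, SE 0.16, adjusted p = 1.25e-06), and had a log2 fold change of -1.10 (SE 0.16, adjusted p = 6.6e-05) in ob/ob livers. The ratio of Cd55os to Cd55 still changed by -2.52 (SE 0.47, limma adjusted p = 0.000487) and -3.15 (SE 0.47, limma adjusted p = 6.24e-05).

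Slc7a6os, a protein-coding member whose yeast counterpart brings RNA polymerase II into the nucleus, stood at 13.7, 17.6 and 19.4 CPM in fasted FH libraries, against 29.3, 23.8 and 31.7 CPM in fasted vector libraries (log2 fold change -0.74, SE 0.17, adjusted p = 0.00222). Its level was 11.9, 12.2 and 14.2 CPM in ob/ob FH libraries, against 24.2, 26.1 and 18.7 CPM in ob/ob vector libraries (log2 fold change -0.85, SE 0.17, adjusted p = 0.000898). Each FH library was below each vector library. Slc7a6, an amino acid transporter, had 126 counts in all, with log2 fold changes of -1.92 (SE 0.80, adjusted p = 0.0563) in fasted and -0.76 (SE 0.65, adjusted p = 0.341) in ob/ob livers. Neither passed the threshold, but the fasted value was called by DESeq2 (-1.99), on library totals (-2.56), with no filter (-1.94), and without ob/ob FH replicate 1 (-1.98) or 2 (-1.91) or ob/ob vector replicate 2 (-1.91). The ob/ob value was called without ob/ob FH replicate 2 (-1.88).

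Ctcflos is an abundant member in which ob/ob vector replicate 2 stood apart from the other ob/ob vector libraries. Ctcflos stood at 17.9, 15.6 and 34.00 CPM in fasted FH libraries, against 81.03, 114 and 126 CPM in fasted vector libraries (log2 fold change -2.24, SE 0.55, adjusted p = 0.00362). With FH the ob/ob level was 10.2, 10.2 and 10.2 CPM, against 70.3, 6.88 and 47.2 CPM with the vector in ob/ob livers (log2 fold change -2.02, SE 0.56, adjusted p = 0.00777). The fasted groups did not overlap, while ob/ob vector replicate 2 lay below the ob/ob FH libraries, and without that library the ob/ob value of Ctcflos was -2.51, against -1.39 without ob/ob vector replicate 1. Ctcfl, a germ-cell relative of the insulator protein CTCF, fell in fasted livers, with a log2 fold change of -2.13 (SE 0.54, adjusted p = 0.00425), and had the same low library, 0.840 CPM in ob/ob vector replicate 2 beside 9.28 and 5.86 CPM.

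Tmem147os, which is not in the annotation used, had 3, 1 and 7 counts in fasted FH libraries, against 18, 33 and 36 counts in fasted vector libraries (log2 fold change -3.02, SE 0.50, adjusted p = 0.000214). In ob/ob livers it had 3, 2 and 7 counts with FH, against 43, 45 and 50 counts with the vector (log2 fold change -3.60, SE 0.48, adjusted p = 4.31e-05). Groups did not overlap. Tmem147, a protein of the endoplasmic reticulum membrane, was at 0.06 (SE 0.12, adjusted p = 0.689) and 0.11 (SE 0.12, adjusted p = 0.457), and the ratio changed by -3.17 (SE 0.52, limma adjusted p = 0.000156) and -3.75 (SE 0.52, limma adjusted p = 3.16e-05). Just above the limit, Plxna4os1 was called in fasted livers (log2 fold change -2.40, SE 0.54, adjusted p = 0.00212) and was at 0.01 (SE 0.46, adjusted p = 0.982) in ob/ob livers. Fbxl12os fell in both models, with log2 fold changes of -2.34 and -1.97, and the ob/ob call was lost without ob/ob vector replicate 3 (-1.52). Phtf1os fell in fasted livers, with a log2 fold change of -2.76, and had 1 count in ob/ob FH libraries, against 30 in ob/ob vector libraries.

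The ratio of member to stem within a library was fitted with limma on log2 values (0.5 added to each count) over opposite-strand pairs, namely the 67 member pairs with 60 or more counts in both genes and 1874 other overlapping pairs of the annotation. With FH in fasted livers the ratio fell in 27 of the 67 pairs (40.3%, against 42.8% of the other pairs) and rose in 3 (4.48%, against 10.2%). It fell in ob/ob livers in 33 (49.3%, against 41.6%) and rose in 5 (7.46%, against 11.4%). The medians were -1.10 in fasted and -0.95 in ob/ob livers, beside -0.72 and -0.67 over the other pairs. In the other pairs the gene with fewer counts is the numerator. The ratio fell in both models in 23 pairs, rose in both in 2 and was never called in opposite directions. The count of 3 was 1 without fasted FH replicate 3, fasted vector replicate 3, or ob/ob FH replicate 1 or 3. The count of 5 was 2 without ob/ob FH replicate 1 or 3, and 3 without ob/ob FH replicate 2 or any ob/ob vector replicate.

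Member and stem were both called in 15 of 65 pairs in each model. In fasted livers 6 members fell while the stem rose (Fam120aos, Rab10os, Rapgef4os2, Rapgef4os3, Gata6os and Frmd8os), 7 fell with the stem and 2 rose with it. The ob/ob livers had 5 that fell while the stem rose (Rab10os, Gata6os, Hnf4aos, Prkag2os2 and Frmd8os), 9 fell with it and 1 rose with it. Of the 65 pairs with both genes tested, these are 9.23%, 10.8% and 3.08% in fasted and 7.69%, 13.8% and 1.54% in ob/ob livers. In 1790 other overlapping annotated pairs the gene with fewer counts takes the member's place. There the calls were made in 14.2%, 10% and 6.82% in fasted and 12.5%, 14.2% and 5.87% in ob/ob livers. A member can have more counts than its stem, so the 2 sets are not alike. The joint calls are given as a description only. On library totals the rises of Fam120a, Rab10, Gata6, Hnf4a, Rapgef4 and Prkag2 in these pairs were not called. Over the 63 stems tested, 15 rose and 12 fell in fasted livers (23.8% and 19.0%, against 27.4% and 27.6% of all genes), with a median of 0.00. Among the stems in ob/ob livers 8 rose and 21 fell (12.7% and 33.3%, against 25.8% and 27.9%), with a median of -0.13.

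**Figure D4:**
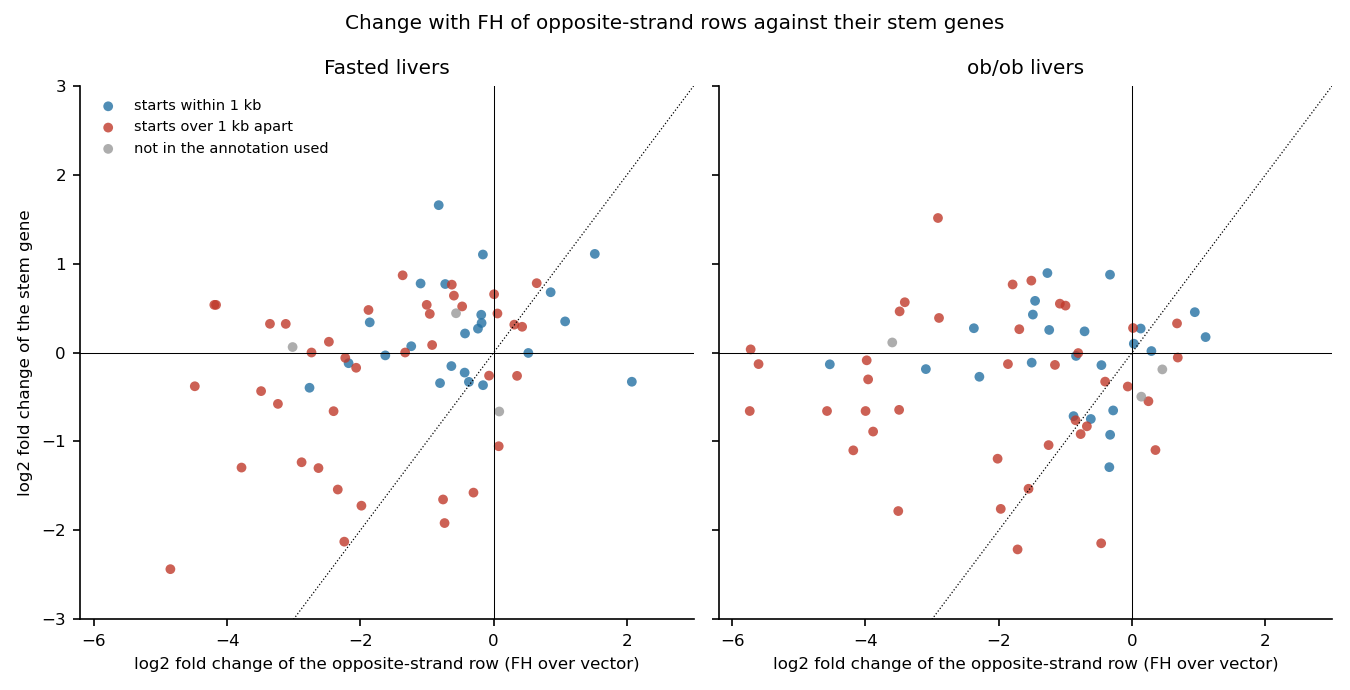
Log2 fold change of FH over vector for each member (x axis) and its stem gene (y axis) in fasted (left) and ob/ob livers (right), with colours for the distance between the 2 starts and a dotted line where both change alike. Most points lie left of that line, with member medians of -0.92 and -1.27 and stem medians of 0.00 and -0.13. On library totals all points shift down and left together, and the medians of all genes move by -0.67 and -0.62.

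Members that start far from the stem's start had lower medians than those that start close. Distance was taken between the outermost starts of each gene in GENCODE. Hand2os1 therefore counts as distant, although its RefSeq promoter window overlaps that of Hand2. Of 25 members that start within 1 kb of the stem's start, 4 rose and 6 fell in fasted livers (16.0% and 24.0%) with a median of -0.44, and 2 rose and 12 fell in ob/ob livers (8.00% and 48.0%) with a median of -0.84. Of 43 tested members that start further away, 0 rose and 27 fell in fasted livers (62.8%) with a median of -1.37, and 1 rose and 30 fell in ob/ob livers (69.8%) with a median of -1.69. Over all genes tested 27.6% and 27.9% fell in fasted and ob/ob livers, and over the other noncoding genes 56.8% and 65.4%. The share of close members that fell in fasted livers was thus near that of all genes, and the shares of distant members were near those of other noncoding genes. Of 15 inside the stem gene, 9 fell in fasted and 8 in ob/ob livers. The ratio fell in 5 of 23 close pairs (21.7%) and 21 of 41 distant pairs (51.2%) in fasted livers, beside 42.8% of the other annotated pairs. In ob/ob livers the ratio fell in 10 (43.5%) and 22 (53.7%), beside 41.6%, so the close share is near that of the other pairs. Of 41 tested members whose exons overlap the stem's, 24 fell in fasted and 30 in ob/ob livers (58.5% and 73.2%), and of 27 without such overlap 9 and 12 fell (33.3% and 44.4%), of which the fasted share is near that of all genes. These classes were compared by counts alone, and the difference between them was not tested.

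Sequence features that the choice did not use directly are given next for the same classes. RefSeq promoter windows matched 44 of the 72 members. Their median ratio of observed to expected CpG was 0.694, beside 0.389 over 27025 genes. It was 0.859 in 20 members that start close to the stem and 0.298 in 23 that start further away. The 19 members that fell in both models had 0.331 and the other 25 had 0.750. The letters TATAAA, searched on both strands (TTTATA on the other), were in the window of 2 of the 44 (4.55%), beside 14.2% of all windows. Of 69 members with a GENCODE M21 transcript, 54 (78.3%) held AATAAA or ATTAAA in the last 50 nt of a transcript on the sense strand, beside 44.0% of 55341 genes. The 32 of them that fell in both models had a median longest transcript of 2067 nt, and the other 37 had 971 nt. These are descriptions of letters and lengths and say nothing of which factor or enzyme acts there.

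The effect of FH differed between the models in 3 members, all more negative in ob/ob livers (edgeR and DESeq2 each called 0 of 71 more positive, and 9 had an unadjusted p under 0.05 in either direction). These are 4.23% of the members, against 3.65% of all genes that were more negative and 4.77% that were more positive, so the share is near that of all genes. Prox1os, antisense to the start of Prox1, a homeobox factor of hepatocytes and lymphatic vessels, stood at 4.09, 3.85 and 3.94 CPM in ob/ob FH libraries, against 5.33, 6.20 and 4.81 CPM in ob/ob vector libraries. In fasted livers it stood at 12.9, 10.8 and 15.6 CPM with FH, against 7.59, 7.18 and 7.04 CPM with the vector. It was thus lower with FH in ob/ob livers (-0.46, adjusted p = 0.0387) and higher in fasted livers (0.86, adjusted p = 0.00077; 0.18 and not called on library totals), a difference of -1.32 (SE 0.24, adjusted p = 0.00684). The ob/ob call was lost without fasted FH replicate 1, fasted vector replicate 2 or 3, any ob/ob FH replicate, or ob/ob vector replicate 1 or 2 (-0.50 to -0.34). Prox1 rose in fasted livers (log2 fold change 0.68, SE 0.20, adjusted p = 0.0106), a call lost without fasted FH replicate 2 (0.54) or fasted vector replicate 1 (0.51) and on library totals (0.01), and was at -0.14 in ob/ob livers.

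Zbtb11os1, which starts 734 bp from the zinc-finger gene Zbtb11, stood at 1.09, 0.884 and 0.797 CPM in ob/ob FH libraries, against 0.522, 1.42 and 1.52 CPM in ob/ob vector libraries. In fasted livers it stood at 2.54, 2.14 and 3.80 CPM with FH, against 0.638, 0.957 and 0.398 CPM with the vector. The ob/ob groups overlapped and the fasted groups did not. It rose in fasted livers (log2 fold change 2.07, SE 0.44, adjusted p = 0.00129), and the difference of effects was -2.40 (SE 0.61, adjusted p = 0.0293). That difference was not called without fasted FH replicate 3, fasted vector replicate 1 or 3, ob/ob FH replicate 2 or 3, or ob/ob vector replicate 3 (-2.37 to -2.12). For Hnf4aos the difference was -1.80 (SE 0.44, adjusted p = 0.0235), and it was not called without fasted FH replicate 2, fasted vector replicate 2, or ob/ob FH replicate 2 or 3 (-1.77 to -1.60). The count of 3 members was 1 without ob/ob FH replicate 2 or 3, and without ob/ob vector replicate 2 a member was called more positive. For the ratio of member to stem, no pair was called for the difference by limma (11 of 67 at an unadjusted p under 0.05), against 1.28% of the other pairs more negative and 1.44% more positive.

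Between ob/ob and fasted livers with the vector, 6 members were higher and 4 lower in ob/ob (8.45% and 5.63%, against 9.36% and 8.18% of all genes), shares near those of all genes. Hectd2os was higher at 30.8, 45.9 and 20.9 CPM in ob/ob vector libraries, against 10.2, 3.59 and 9.50 CPM in fasted vector libraries (log2 fold change 2.07, SE 0.38, adjusted p = 0.00261). Mkln1os, which starts 38 bp from the gene of muskelin, was higher at 5.74, 3.99 and 5.07 CPM in ob/ob vector libraries, against 1.06, 1.85 and 2.19 CPM in fasted vector libraries (log2 fold change 1.52, SE 0.32, adjusted p = 0.00581). Neither pair of groups overlapped. Brip1os was higher by 0.69 (SE 0.16, adjusted p = 0.00816). Srrm4os, opposite the gene of a neural splicing factor, was lower at 0.812, 0.473 and 0.261 CPM in ob/ob vector libraries, against 2.34, 2.69 and 2.66 CPM in fasted vector libraries (log2 fold change -2.31, SE 0.35, adjusted p = 0.000653). The count of 6 was 3 without fasted vector replicate 2, ob/ob vector replicate 1 or ob/ob vector replicate 3, and the count of 4 was 2 without fasted vector replicate 2 or 3 and 7 without ob/ob vector replicate 2. With FH, 5 members were higher and 15 lower in ob/ob livers (7.04% and 21.1%, against 18.6% and 21.6% of all genes), and the count of 5 was 3 without fasted FH replicate 1 or 2, ob/ob FH replicate 2 or 3, or ob/ob vector replicate 1. The members with FH that were lower in ob/ob livers include Hnf4aos (-2.37), Prox1os (-1.73) and Oip5os1 (-0.57). The sex markers differ between these 2 groups too and cannot be told apart from the model there. Mkln1os also fell with FH in ob/ob livers (log2 fold change -0.84, SE 0.30, adjusted p = 0.0316), which did not pass once any ob/ob FH replicate, or ob/ob vector replicate 1 or 3, was left out (-0.92 to -0.70).

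Lists of genes known to act on such RNAs held calls in both directions. Over all genes tested 27.4% rose and 27.6% fell in fasted livers, and 25.8% and 27.9% in ob/ob livers, with medians of -0.04 and -0.01. Of the noncoding genes other than members, 56.8% and 65.4% fell. The lists are given as a description only. The nuclear exosome, which degrades many antisense RNAs, had 7 of 23 tested genes higher and 6 lower with FH in fasted livers and 4 higher and 8 lower in ob/ob livers, with medians of 0.05 and -0.19. Factors of 3′ end formation and termination had 15 of 29 higher and 4 lower in fasted livers and 9 higher and 7 lower in ob/ob livers, with medians of 0.38 and 0.16. Genes that bind or edit double-stranded RNA had 7 of 18 higher and 3 lower, and 3 higher and 3 lower, with medians of 0.05 and 0.14. Of 9 long noncoding RNAs listed by name, 1 rose and 7 fell in fasted livers and 8 fell in ob/ob livers, with medians of -2.53 and -3.03. Among them Malat1 lay at 12.7 to 80.9 CPM in FH libraries and 358 to 558 CPM in vector libraries, and Norad had a log2 fold change of 0.42 and -0.04. Whether the place of an RNA in the cell goes with its change was not tested. Of 4 tested rows that end in AS or IT and have a stem row, 2 rose and 1 fell in fasted livers and 1 rose and 1 fell in ob/ob livers, with medians of 0.33 and 0.07. One of them, Hras, entered by its spelling alone and is no antisense gene. Dlx1as fell in both models, with log2 fold changes of -3.74 and -3.57, and Ncbp2as2 rose in fasted livers (0.49, edgeR adjusted p = 0.0073) and stood at 0.15 in ob/ob livers, where it was not called.

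Markers of cell types moved along with the comparisons. Hepatocyte markers rose in 9 of 10 and 8 of 10 genes with FH in fasted and ob/ob livers. Of 13 markers of sinusoidal endothelium, 0 rose and 13 fell in fasted livers and 7 rose and 1 fell in ob/ob livers, and of 13 Kupffer cell markers 0 rose and 11 fell, and 9 rose and 1 fell. The summed endothelial level was 228 to 250 CPM in fasted FH libraries and 487 to 592 CPM in fasted vector libraries, and 439 to 526 CPM in ob/ob FH libraries and 358 to 432 CPM in ob/ob vector libraries. The summed Kupffer cell level was 264 to 295 CPM in fasted FH and 515 to 702 CPM in fasted vector libraries, and 740.2 to 1029 CPM in ob/ob FH and 383 to 589 CPM in ob/ob vector libraries. Stellate cell markers are given beside Hand2os1, and of 5 bile duct markers tested none was called in either model (edgeR), while of 10 lymphocyte markers 0 rose and 1 fell in fasted and 2 rose and 1 fell in ob/ob livers. The part of cell make-up, of the smaller noncoding share, of the clock genes and of the sex markers in the members' changes was not tested.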

How the data were processed

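Per the labels' protocols, libraries were made from 1 µg of TRIzol RNA with a stranded kit that selects polyadenylated RNA. The submitters' processing notes name STAR 2.7.11a and GRCm39; the sources used here give no counting tool, strand setting or annotation. The authors deposited raw counts per gene symbol for 12 libraries, used as deposited. The members and lists were chosen with earlier results of these data known. Counts were tested with edgeR 4.0.16 (R 4.3.3; quasi-likelihood, TMM, filterByExpr with minimum counts of 10 and 15, 1 model of 4 groups, 8 residual degrees of freedom), with Benjamini-Hochberg adjustment over 15228 genes. Member-to-stem ratios were fitted with limma 3.58.1 (0.5 added, variance trend on the numerator's mean count only, so thin stems are not allowed for). The tests were run first on simulated data. DESeq2 1.42.0, other scalings and filters, thinning, a replicate block and leaving out each library were alternatives. Named genes are the members with the most counts, those with the strongest evidence in both models, those opposite to their stem, those that differed between models or between ob/ob and fasted livers, those around the limit of 60 counts, and the members at Rapgef4; a few members that this rule names are not reported here. Positions and promoters came from GENCODE M21 and RefSeq on GRCm38, joined by symbol. Intervals cover counting error only.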

Additional observations from a re-analysis of the deposited data

Results flagged for a closer look

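The FH effect differed between ob/ob and fasted livers, by the interaction term of the edgeR fit, in 3 members and 2 stem genes named here. The difference, ob/ob minus fasted on the log2 scale, was -1.32 (SE 0.24, adjusted p = 0.00684) for Prox1os, -1.80 (SE 0.44, adjusted p = 0.0235) for Hnf4aos and -2.40 (SE 0.61, adjusted p = 0.0293) for Zbtb11os1. It was -1.19 (SE 0.22, adjusted p = 0.00733) for Rapgef4, which was lower with FH in ob/ob livers (-0.66) and higher in fasted livers (0.54). It was 1.34 (SE 0.22, adjusted p = 0.00411) for Cd55, which was lower with FH in both, at -1.10 in ob/ob and -2.44 in fasted livers. All 5 use the ob/ob FH libraries, in which Xist was high and Y-linked counts were 0, so the sex markers cannot be told apart from the model in these differences.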

How the results depend on the processing

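The stricter filter of 50 counts in 3 libraries left 13 members lower with FH in fasted and 18 in ob/ob livers, fewer members being tested. On library totals 1090 genes rose and 8488 fell in fasted livers, 1040 rose and 8109 fell in ob/ob livers, and 1 member rose in ob/ob livers. For the difference between models, 1095 genes were more positive with no filter, and 361 (library totals), 346 (stricter filter) and 339 (thinned counts) were more negative. For ob/ob against fasted livers with FH, library totals gave 1477 genes and 9 members lower, the stricter filter 8 members lower, and thinning 3 members higher. With the vector, library totals gave 2729 genes higher and 641 lower, a fit of only the 2 groups 698 and 546 with 3 members higher, and the stricter filter 2 members lower. The ratio rose in 1 pair in fasted livers with thinning. At 200 counts in both genes it fell in 16 member pairs and 531 others in fasted livers, and in ob/ob livers rose in 3 and fell in 16 member pairs and 503 others.

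On library totals the direction turned for Fam120a in ob/ob livers (-0.39), Hnf4a (-0.010), Mkln1 (-0.34) and Rapgef4 (-0.13) in fasted livers, Prkag2 (-0.55 in fasted, -0.16 in ob/ob), Tmem147 (-0.61 and -0.51), and Rab10 (-0.076) and Wdr83 (-0.17) in ob/ob livers. Among values of named genes and ratios, 1701 of those with a library left out kept their side of the threshold (32 uncalled ones crossed 0), 72 lost the call and 15 gained it, and under other settings 932 (27 crossed 0), 30 and 20. The causes were not tested.

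Without each library in turn, members higher and lower numbered 4 to 5 and 30 to 35 in fasted livers, 2 to 4 and 34 to 44 in ob/ob livers, and 0 to 1 and 1 to 3 for the difference (genes 376 to 875 and 190 to 776). They numbered 3 to 6 and 10 to 16 for ob/ob against fasted with FH (genes 2218 to 3165 and 2170 to 3631), and 3 to 6 and 2 to 7 with the vector (genes 848 to 1872 and 793 to 1540). The ratio rose in 1 to 3 and fell in 21 to 32 member pairs in fasted livers, and in 2 to 5 and 26 to 35 in ob/ob livers.

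Libraries with the same replicate number correlated at -0.15 to 0.11 in their deviations from group means, and those with different numbers at -0.21 to 0.20. With 3 libraries a group, these values cannot show whether libraries of the same number share a batch. With the replicate block, 4 members rose and 32 fell in fasted livers, 3 and 41 in ob/ob livers, 0 and 2 were called for the difference, and the ratio rose in 1 member pair in fasted livers. No longer called with it were the Zbtb11os1 difference (edgeR adjusted p = 0.0505), Prox1os in ob/ob livers (0.0534) and the fasted Brip1os ratio (limma, 0.0525), each called without it.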
